A study of Homo sapiens with 12 samples.

Results

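Histone genes were followed on 12 oligonucleotide arrays of 293T cells under 3 vectors. Members were the probe sets (groups of short probes for 1 transcript) with at least 1 symbol of an H1, H2A, H2B, H3 or H4 gene or of an H2A or H3 variant, and with no symbol from outside the histone genes. This gave 106 of the 54675 probe sets, for 68 of the 20875 genes or gene groups of the array, a gene group being a set of near-identical genes that share a probe set. Of these, 69 probe sets belonged to replication-dependent genes (52 gene groups), 33 to variant genes (12 gene groups) and 4 to pseudogenes or an antisense RNA. A further 4 probe sets for H3-3A and H3-3B were also assigned to a microRNA, MIR4738, and were left out.

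293T is a human embryonic kidney line that carries the SV40 large T antigen. All 12 samples were 293T cells that had received plasmid with the PEI reagent (polyethylenimine). RNA was taken 48 hours after transfection, and 12 micrograms of it went into each labelling. Of the groups, 1 received an empty vector, 1 a plasmid expressing chr1.tRNA68-Gly(GCC), a tRNA gene, and 1 a plasmid expressing the CU1276 hairpin. Each has 4 samples that the labels call biological replicates. The share of cells that took up a vector and the promoter of each vector are not given in the sources used here, and the labels do not say whether the samples came from separate cultures. Of the 293T markers on the array, 7 of 8 passed the filter on dim probe sets (PAX2, EYA1, NEFM, NEFL, INA, KRT8 and KRT18). Of other cell types, 2 of 5 B and T cell markers, 2 of 2 hepatocyte markers, 1 of 1 erythroid marker and 3 of 4 fibroblast markers passed it, with a highest geometric mean signal of 75.6, 116, 73.6 and 799.

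DNA is wound around octamers of the core histones H2A, H2B, H3 and H4, and the linker histone H1 binds where it enters and leaves. Replication-dependent genes lie in clusters and are expressed in S phase. Their mRNAs mostly end in a stem-loop bound by SLBP in place of a poly(A) tail, although some members also make polyadenylated transcripts. Variant histones such as H2A.Z, H2A.X, macroH2A and H3.3 are encoded by solitary genes outside the clusters, and their mRNAs are mostly polyadenylated. The standard labelling protocol for these arrays starts from poly(A) tails, so a signal of a replication-dependent gene need not follow the amount of its stem-loop mRNA. The part of this in the results was not tested.

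Some histone genes named in the comparisons differ in the sequence before their start sites, and a link of these sequences to the signals was not tested. The 250 bases before the start are shown for H2AC6 and H2BC5, replication-dependent core histone genes, and for the variants H2AZ2 and H1-10, from RefSeq on GRCh38.p14. They are read in the direction of the gene, and capitals mark 3 motifs on either strand, none of which overlaps another here. The first is the TATA box, searched as TATAAA. The next, bound by the factor NF-Y, is CCAAT. The last is an octamer found in some histone promoters, searched as ATTTGCAT. H2AC6 is at chr6:26123922-26124171 on the plus strand, H2BC5 at chr6:26157871-26158120 on the plus strand, H2AZ2 at chr7:44848088-44848337 on the minus strand and H1-10 at chr3:129316287-129316536 on the minus strand.
H2AC6: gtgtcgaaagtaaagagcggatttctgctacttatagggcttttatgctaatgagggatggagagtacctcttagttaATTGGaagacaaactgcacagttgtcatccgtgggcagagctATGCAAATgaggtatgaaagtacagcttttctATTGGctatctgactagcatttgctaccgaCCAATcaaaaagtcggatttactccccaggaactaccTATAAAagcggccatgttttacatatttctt
H2BC5: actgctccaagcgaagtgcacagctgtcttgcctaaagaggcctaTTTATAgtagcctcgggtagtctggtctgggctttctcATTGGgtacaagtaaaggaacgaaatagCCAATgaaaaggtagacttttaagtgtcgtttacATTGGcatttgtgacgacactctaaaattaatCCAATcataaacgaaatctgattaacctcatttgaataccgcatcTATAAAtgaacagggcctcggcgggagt
H2AZ2: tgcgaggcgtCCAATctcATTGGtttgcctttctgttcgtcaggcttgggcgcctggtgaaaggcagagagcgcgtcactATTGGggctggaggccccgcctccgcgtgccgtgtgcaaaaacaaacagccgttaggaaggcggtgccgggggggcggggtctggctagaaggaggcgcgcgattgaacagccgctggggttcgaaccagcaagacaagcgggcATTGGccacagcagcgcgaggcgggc
H1-10: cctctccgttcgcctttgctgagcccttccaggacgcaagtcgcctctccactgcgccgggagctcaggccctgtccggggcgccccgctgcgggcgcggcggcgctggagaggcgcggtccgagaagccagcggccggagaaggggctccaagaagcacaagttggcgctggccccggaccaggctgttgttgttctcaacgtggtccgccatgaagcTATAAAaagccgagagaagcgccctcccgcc

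In H2AC6 the TATA box began 31 bases before the start and the octamer, on the opposite strand, 130 bases before it. H2AC6 and H2BC4 start 246 bases apart on opposite strands, so the H2AC6 window also covers the upstream region of H2BC4, whose own probe set was dim. In H2BC5 a TATA box began 28 bases before the start, and 4 CCAAT boxes lay further upstream. H2AZ2 had CCAAT boxes and no TATAAA in this window, and H1-10 had a TATA box at 31 bases and no CCAAT. Of the member symbols, 56 of 62 replication-dependent and 14 of 14 variant ones were in the promoter table. The TATA box was in 65% of their windows for replication-dependent genes (39 of 60), in 21.1% for variants (4 of 19) and in 10.7% of all 35116 windows. The octamer was in 38.3% of replication-dependent windows, 5.26% of variant windows and 1.63% of all windows. By family the octamer was in 77.8% of H2B and 61.5% of H2A windows, in 10% of H3 windows and in 0% of H4 and H1 windows. Where an H2A and an H2B gene share upstream DNA, the same octamer can be counted in both families. CCAAT, a shorter motif, was in 83.3%, 73.7% and 32% of replication-dependent, variant and all windows. A match to these letters is a description and no proof of a binding site.

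Signals are MAS5 intensities on a linear scale, as deposited. A probe set was tested where its mean log2 signal reached the 40th percentile of all probe sets, a geometric mean signal of 43.3, which left 32768 probe sets. Of the histone probe sets, 67 passed and 39 were dim. The tested ones covered 43 of 69 replication-dependent probe sets (32 of 52 gene groups), 24 of 33 variant probe sets (9 of 12 gene groups) and 0 of the 4 pseudogene or antisense ones. Among replication-dependent genes, tested probe sets were 2 of 7 for H1, 11 of 15 for H2A, 2 of 2 shared by H2A and H3, 12 of 20 for H2B, 6 of 10 for H3 and 10 of 15 for H4. Among variants, they were 1 of 5 for H1, 18 of 23 for H2A and 5 of 5 for H3. Of the 67, 19 carried the suffix _x_at and 17 the suffix _s_at, which mark probes that can match several transcripts, so a signal of one clustered histone gene may hold RNA of its near-identical neighbours. Gene groups are represented by their brightest tested probe set unless stated.

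The arrays were alike in scale. Median signals were 75.8 to 104 and the 2% trimmed mean was 500.1 on each array. GAPDH probe sets near the 3' end gave 1.18 to 1.67 times the signal of those near the 5' end, which tracks how intact the RNA was. Control RNAs of Bacillus, added in labelling, had a mean signal of 1726 to 1834 on the arrays numbered 1, of 331 to 389 on those numbered 2 and of 20.01 to 26.13 on those numbered 3 and 4. Each number holds 1 array of every vector, so these levels are balanced over the groups.

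With the vector for the tRNA gene against the empty vector, no histone gene passed the test across all probe sets. In limma, 0 of 67 histone probe sets had an adjusted p under 0.05, as did 0 (0%) of the 32768 tested, and the smallest adjusted p of a histone probe set was 1. Before adjustment 2 of 67 (2.99%) had a limma p under 0.05, against 3.78% of all tested probe sets. One was higher, H2AZ2 (background 1.71%), and the other lower, H2AC6 (background 2.07%). These same probe sets were the ones whose 4 arrays lay entirely above or below the 4 empty vector arrays, against backgrounds of 1.17% and 1.43%. With the replicate number as a block, 10 of 67 (14.9%) had an unadjusted limma p under 0.05, against 7.77% of all tested. The histone share was thus below that of all tested in the main fit and above it with the block. In bulk RNA, fewer cells that express a gene and less RNA per cell cannot be told apart.

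H2AC6 encodes a replication-dependent H2A and is among the clustered genes known to make polyadenylated transcripts as well. Its signals were 671, 490.2, 635.8 and 507.4 with the empty vector, and 456.2, 345.8, 392.5 and 372.9 with the tRNA vector. The 4 tRNA vector arrays were the lowest of the 12, since the hairpin vector gave 705.4, 513, 541.2 and 675.2. The share of all tested probe sets with this pattern was not counted. The log2 fold change of H2AC6 was -0.55 ± 0.15 (SE, n = 4 arrays per group), with a 95% interval of -0.88 to -0.22, a fold of 0.683 (limma adjusted p = 1). In arrays of the same number the difference was -0.56, -0.50, -0.70 and -0.44, so it was of like size at each level of the control RNAs. Over 19 other settings the log2 fold change stayed between -0.63 and -0.47, and the smallest limma adjusted p was 0.175. Changes of filter, intensity trend or block, and leaving out a hairpin vector array, cannot move this log2 fold change. Fewer than 19 settings therefore bear on its size.

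**Figure D1:**
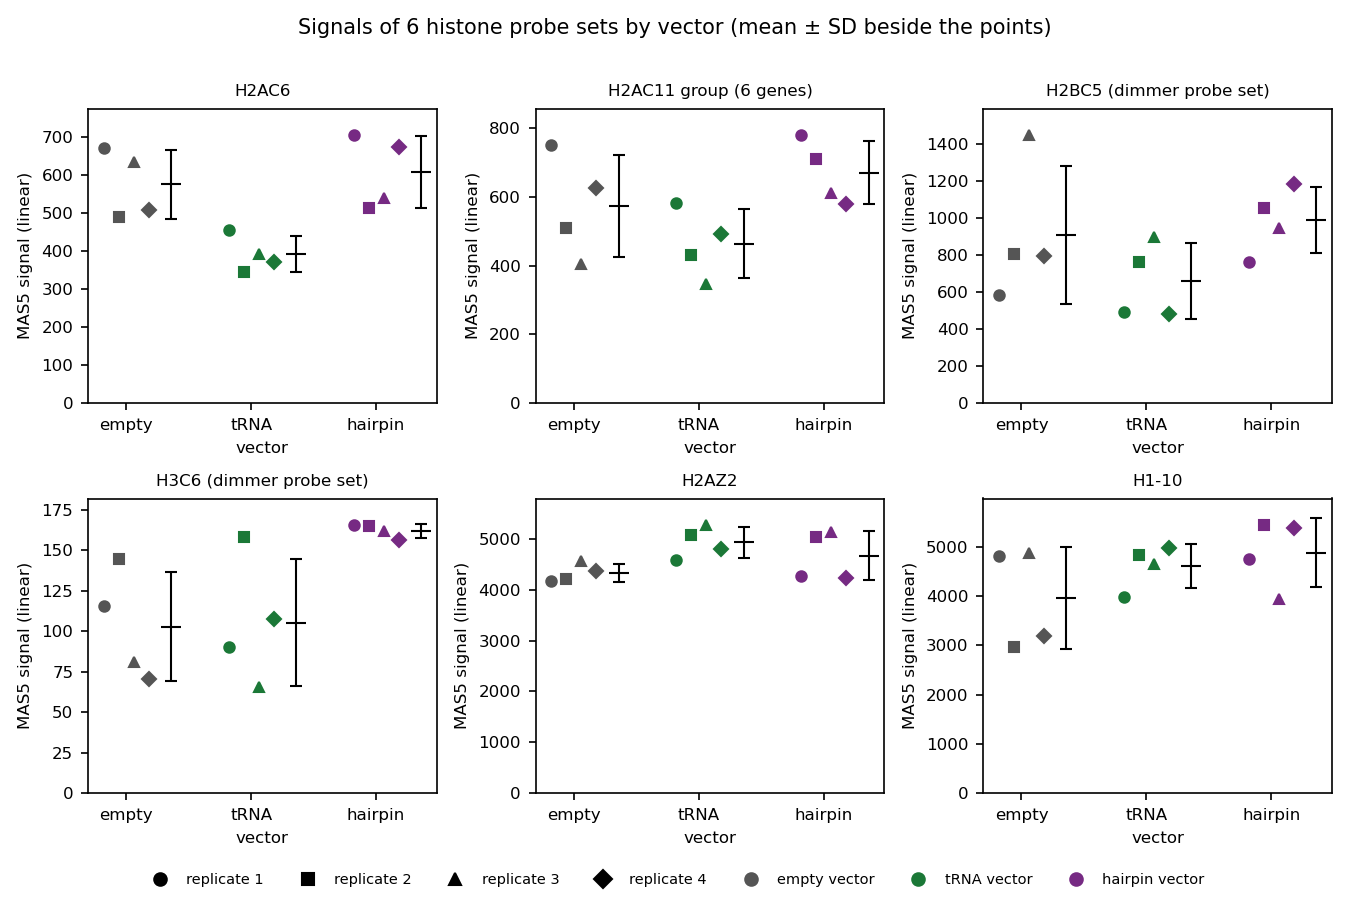
MAS5 signal (linear, y axis) of 6 histone probe sets by vector (x axis), 1 symbol per array with its shape giving the replicate number, and the mean ± SD of 4 arrays drawn beside the points. H2AC6 is at 346 to 456 on the 4 tRNA vector arrays and at 490 or more on the other 8, while H1-10 with the empty vector falls at 2966 and 3183 on 2 arrays and at 4821 and 4880 on the other 2.

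Other replication-dependent genes differed less clearly. A probe set named for its values in the comparison of the hairpin and tRNA vectors is shared by H2AC11, H2AC12, H2AC13, H2AC15, H2AC16 and H2AC17, which encode the same or nearly the same H2A protein. It gave 751, 510.3, 404.4 and 624.6 with the empty vector and 582.9, 431.8, 347.6 and 492.2 with the tRNA vector. The groups overlapped, though the tRNA vector was lower in 4 of 4 same-number comparisons, and the log2 fold change was -0.29 ± 0.20. The probe set shared by H2AC7 and H3C4 had a log2 fold change of -1.36 ± 0.64 (95% interval -2.72 to 0.013). That value rested in part on 1 array at 9.849, and the signal of this probe set was no higher than 142.1 on any array. H4C4, an H4 gene, gave -0.74 ± 0.42 and H2BC17, an H2B gene, 1.13 ± 0.67, with intervals that included 0 and signals close to the filter.

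Over the 32 replication-dependent gene groups the median log2 fold change was 0.02, with 17 higher and 15 lower and a range from -1.36 to 1.13. Over all 14749 tested gene groups the median was 0.0033, with 7497 higher and 7252 lower. The replication-dependent median was -0.057 without the third empty vector array and -0.053 when probe sets ending in _x_at or _s_at were left out. It therefore has no settled sign. By family the medians were 0.22 for H1 (2 gene groups), 0.07 for H2A (8), -0.00078 for H2B (9), -0.067 for H3 (4) and 0.041 for H4 (7).

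**Figure D2:**
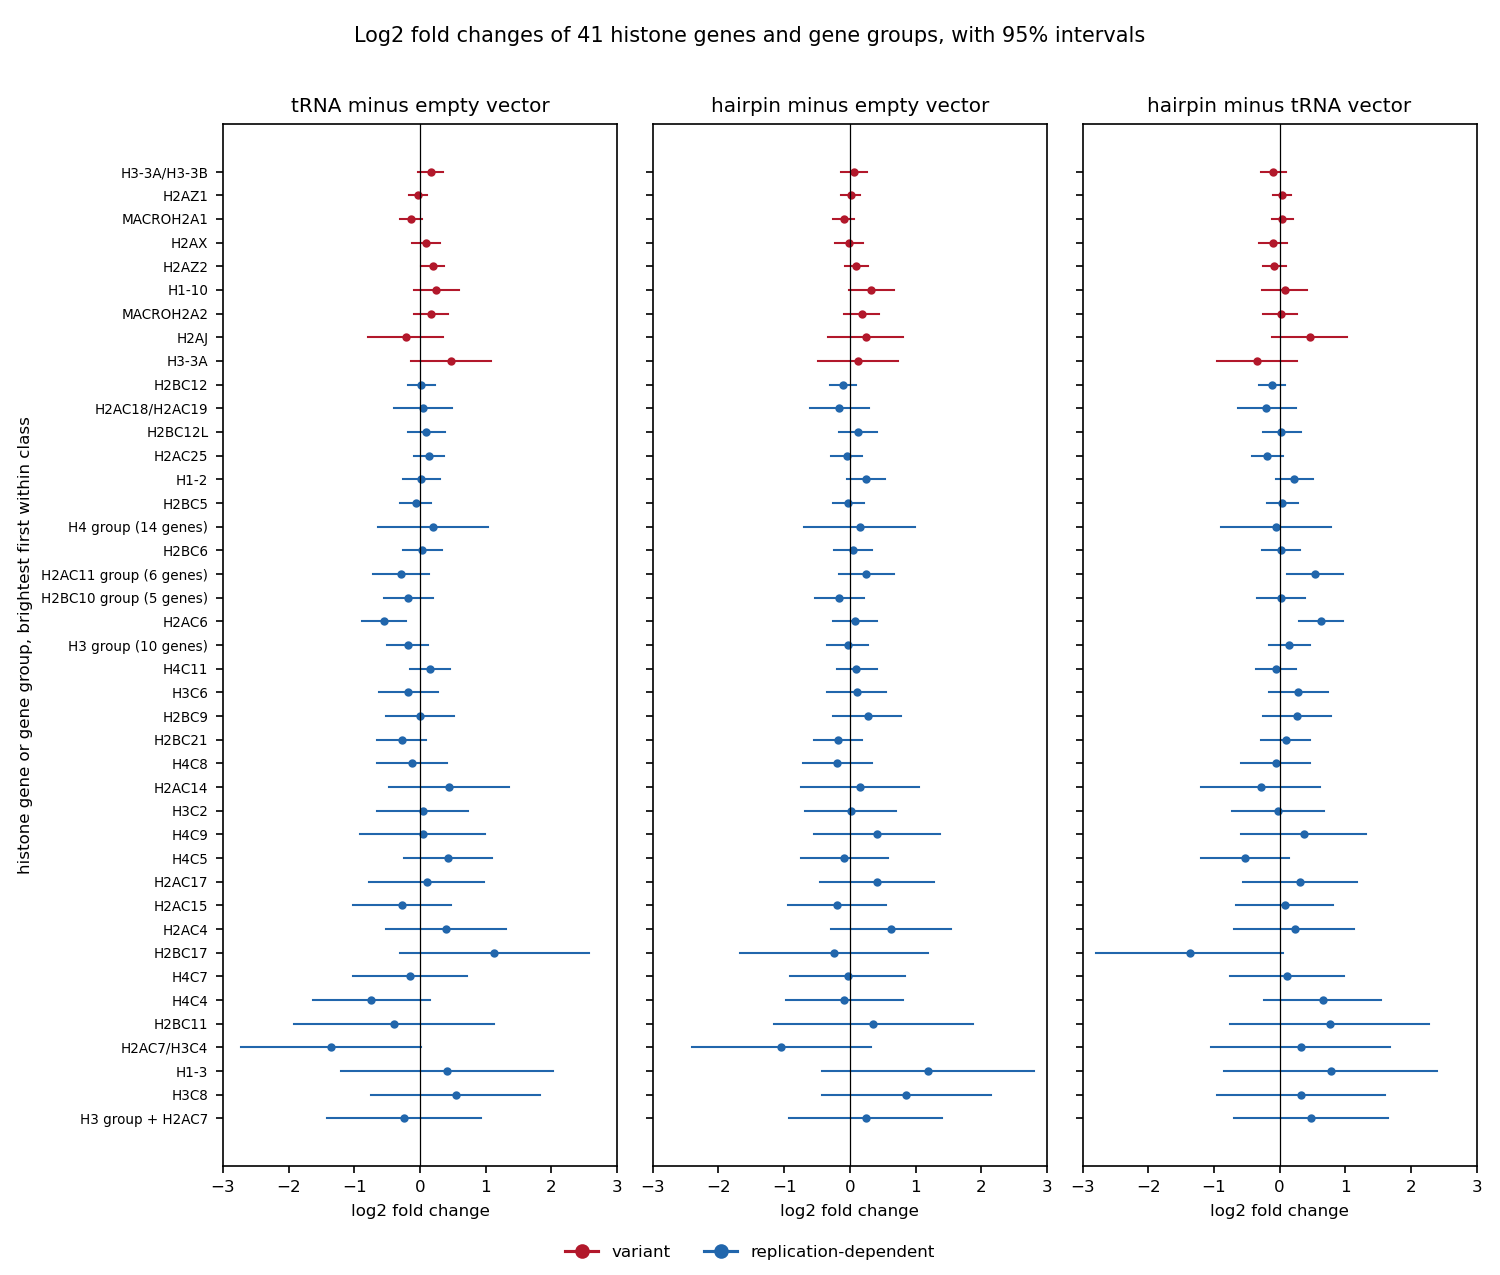
Log2 fold change (x axis) of each tested histone gene group by its brightest probe set, with the 95% interval from limma, for each of the 3 comparisons. Replication-dependent gene groups spread from -1.36 to 1.13 with the tRNA vector against the empty vector, and variant gene groups from -0.22 to 0.47.

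Among the variants, H2AZ2, which encodes an H2A.Z protein found at promoters, was the only one with an unadjusted limma p under 0.05 against the empty vector. Its brightest probe set gave 4174, 4202, 4570 and 4363 with the empty vector and 4574, 5073, 5266 and 4809 with the tRNA vector. The lowest tRNA vector array was just above the highest empty vector array. The log2 fold change of H2AZ2 was 0.19 ± 0.084 (95% interval 0.0081 to 0.37, limma adjusted p = 1). Its other 3 tested probe sets gave 0.055 ± 0.12, -0.0021 ± 0.10 and 0.23 ± 0.14. H2AZ1, which encodes the closely related H2A.Z protein, gave -0.027 ± 0.065.

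H3-3A and H3-3B both encode H3.3, the variant deposited outside replication by HIRA and by DAXX with ATRX. The 4 probe sets that these genes share (also with a pseudogene, H3P6) were each higher in mean with the tRNA vector, by 0.073 to 0.16 log2, and none had an unadjusted limma p under 0.05. The brightest of them gave 27484, 23033, 30111 and 26768 with the empty vector and 26256, 32157, 32495 and 29104 with the tRNA vector, which overlap. The 4 probe sets also assigned to MIR4738 gave 0.0020 to 0.16. A probe set for H3-3A alone had a log2 fold change of 0.47 ± 0.28 (95% interval -0.14 to 1.08). No probe set was listed for H3-3B alone.

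MACROH2A1 and MACROH2A2 encode macroH2A, a variant with a large non-histone domain that is found on the inactive X chromosome. The brightest MACROH2A1 probe set gave -0.14 ± 0.076 (95% interval -0.30 to 0.026) and the MACROH2A2 probe set 0.16 ± 0.12. Of the 5 tested MACROH2A1 probe sets 2 were higher and 3 lower, from -1.22 to 0.10. H2AX, whose product is phosphorylated near DNA breaks, gave 0.091 ± 0.098 with an interval of -0.12 to 0.30. H2AJ, an H2A variant gene, gave -0.22 ± 0.27, and the sign turned without the second tRNA vector array. Its other 2 tested probe sets gave 0.28 ± 0.44 and 0.03 ± 0.37. H1-10, which encodes a linker histone variant, had signals of 4821, 2966, 4880 and 3183 with the empty vector and 3974, 4839, 4653 and 4974 with the tRNA vector. The tRNA vector arrays lay within the span of the empty vector arrays except for 1 above it, and the log2 fold change of H1-10 was 0.25 ± 0.16 (95% interval -0.094 to 0.60). Over the 9 variant gene groups the median was 0.16, with 6 higher and 3 lower. Without _x_at and _s_at probe sets that median was 0.055.

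With the hairpin vector against the empty vector, no histone gene passed either. In limma 0 of 67 histone probe sets passed after adjustment, against 0 (0%) of all tested, and the smallest histone adjusted p was 0.9999. Before adjustment 1 of 67 (1.49%) had a limma p under 0.05, against 2.65% of all tested. This comparison uses the same empty vector arrays as the one for the tRNA vector. The 1 probe set was the dimmer of the 2 tested for H3C6, an H3 gene, and was singled out after its values were seen. It was higher (background 1.43%), with 0 probe sets lower (background 1.22%), and it was also the 1 histone probe set whose 4 arrays lay above all 4 empty vector arrays (background 1.06%), while 0 lay below them (background 1.06%).

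That H3C6 probe set gave 115.7, 144.5, 80.78 and 70.3 with the empty vector and 165.4, 165.2, 161.9 and 156.1 on the hairpin vector arrays. The tRNA vector signals were 89.93, 158.2, 65.79 and 107.5. The hairpin vector arrays were close together, and the second tRNA vector array, at 158.2, lay among them. Its log2 fold change was 0.72 ± 0.31 against the empty vector (95% interval 0.047 to 1.38, limma adjusted p = 0.9999). The brighter H3C6 probe set gave 0.11 ± 0.21 in the same comparison.

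Named by smallest p among replication-dependent genes were H1-2, the shared H2AC7 and H3C4 probe set, H1-3 and H2AC4. H1-2, a linker histone gene, gave 1234, 826.9, 1068 and 1249 with the empty vector and 1178, 1228, 1354 and 1374 with the hairpin vector, a log2 fold change of 0.25 ± 0.13 (95% interval -0.039 to 0.53). H1-3, another linker histone gene, gave 1.19 ± 0.76, the H2AC7 and H3C4 probe set -1.04 ± 0.64 and H2AC4, an H2A gene, 0.62 ± 0.43. These 3 had signals of 9.849 to 179.5 over the 12 arrays, and each interval included 0. H2AC6, named for its values in the other comparisons, gave 0.079 ± 0.15 (95% interval -0.25 to 0.41). The replication-dependent median was 0.066, with 18 higher and 14 lower, beside 0.0043 over all tested gene groups. Without the third empty vector array it was 0.0053, with 16 higher and 16 lower. Family medians were 0.72 for H1, 0.12 for H2A, -0.021 for H2B, 0.062 for H3 and -0.035 for H4. The H1 value rests on 2 gene groups, H1-2 and the dim H1-3.

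Among the variants, H1-10 gave 4756, 5436, 3932 and 5386 with the hairpin vector, and its log2 fold change was 0.33 ± 0.16 (95% interval -0.020 to 0.67, limma adjusted p = 0.9999). The same-number differences were -0.02, 0.87, -0.31 and 0.76, so the mean rested on the arrays numbered 2 and 4, where the empty vector signals were low. MACROH2A2 gave 0.18 ± 0.12, H2AZ2 0.10 ± 0.084, MACROH2A1 -0.092 ± 0.076, H2AJ 0.24 ± 0.27 and H3-3A alone 0.12 ± 0.28. Over all their tested probe sets, MACROH2A1 ranged from -0.63 to 0.24 and H2AJ from -0.12 to 0.24. H2AX gave -0.0068 ± 0.098, H2AZ1 0.012 ± 0.065 and the shared H3-3A and H3-3B probe set 0.064 ± 0.089. The 95% interval of H2AZ1 was -0.13 to 0.15. The variant median was 0.10, with 7 gene groups higher and 2 lower, and it was 0.029 without _x_at and _s_at probe sets.

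Between the hairpin and tRNA vectors no histone gene passed after adjustment. In limma 0 of 67 histone probe sets had an adjusted p under 0.05 (smallest adjusted p = 0.9997), against 0 (0%) of all tested. Before adjustment 4 of 67 (5.97%) had a limma p under 0.05, against 3.88% of all tested, and these 4 were all higher with the hairpin vector (background 2.3%, and 1.58% for lower, where the histone count was 0) and all among the 43 replication-dependent probe sets. Between all 4 arrays of each vector, H2AC6 lay entirely above (background 1.46%) and H2BC17 entirely below (background 1.17%). The comparison shares its tRNA vector arrays with the first one, so the low H2AC6 signals enter both.

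H2AC6 had a log2 fold change of 0.63 ± 0.15 (95% interval 0.30 to 0.96), a fold of 1.55 (limma adjusted p = 0.9997). The same-number differences were 0.63, 0.57, 0.46 and 0.86, and over 19 other settings the value stayed between 0.55 and 0.71, with a smallest limma adjusted p of 0.102. Here too the filter, intensity trend and blocks cannot move the value, nor can leaving out an empty vector array. The probe set shared by the 6 H2A genes H2AC11, H2AC12, H2AC13, H2AC15, H2AC16 and H2AC17 gave 778.6, 708.6, 611.6 and 578.2 with the hairpin vector, of which the lowest lay below the highest tRNA vector array. Its log2 fold change was 0.54 ± 0.20 (95% interval 0.12 to 0.97, limma adjusted p = 0.9997), and it was higher in 4 of 4 same-number comparisons. The other tested probe set shared by these 6 genes gave 0.19 ± 0.37.

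The other 2 of the 4 probe sets were again the dimmer ones of their genes, and they were named after their values were seen. The H2BC5 one gave 495.1, 761.8, 899.2 and 484.1 on the tRNA vector arrays and 763.9, 1055, 946 and 1187 on the hairpin vector arrays. With the empty vector it gave 584.4, 808.2, 1448 and 796.8. The groups overlapped, and the log2 fold change of hairpin over tRNA was 0.62 ± 0.26 (95% interval 0.06 to 1.17). The brighter H2BC5 probe set gave 0.044 ± 0.11. The H3C6 one gave 0.69 ± 0.31 (95% interval 0.026 to 1.36), beside 0.28 ± 0.21 for the brighter one.

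H2BC17 gave 143.6, 119.6, 99.78 and 74.31 on the tRNA vector arrays and 53.66, 32.97, 46.14 and 34.7 on the hairpin vector arrays. All 4 hairpin vector arrays were below all 4 tRNA vector arrays, and the log2 fold change was -1.37 ± 0.67 (95% interval -2.80 to 0.059). With the empty vector this probe set ranged from 10.8 to 135, so it spread over both groups. H2AC25, an H2A gene, gave -0.19 ± 0.11. The replication-dependent median was 0.10, with 22 gene groups higher and 10 lower, beside 0.0030 over all tested gene groups (7458 higher and 7291 lower). It was 0.029 with a stricter filter and 0.19 without _x_at and _s_at probe sets. By family the medians were 0.50 for H1 (2 gene groups, 1 of them the dim H1-3), 0.15 for H2A, 0.029 for H2B, 0.22 for H3 and -0.050 for H4.

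Over the 9 variant gene groups the median was 0.015, with 5 higher and 4 lower, and the difference from the replication-dependent genes was not tested. H2AJ gave 394.6, 164, 371.2 and 496.1 on the tRNA vector arrays and 510.9, 406, 456 and 449.9 on the hairpin vector arrays. Its log2 fold change was 0.46 ± 0.27 (95% interval -0.11 to 1.03), which rested largely on the second tRNA vector array. The other 2 tested H2AJ probe sets gave -0.054 ± 0.44 and -0.15 ± 0.37. H3-3A alone gave -0.35 ± 0.28, the shared H3-3A and H3-3B probe set -0.097 ± 0.089 (the sign turned with quantile normalisation) and H2AZ2 -0.084 ± 0.084. H2AX gave -0.098 ± 0.098, H2AZ1 0.039 ± 0.065, MACROH2A1 0.044 ± 0.076, MACROH2A2 0.015 ± 0.12 and H1-10 0.075 ± 0.16. The 5 tested MACROH2A1 probe sets ranged from -0.06 to 0.58.

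The 95% intervals of single probe sets differed in width between the classes. They are not adjusted for the number of probe sets, so an interval without 0 need not go with an adjusted p under 0.05. The median half-width of the 95% interval was 0.56 log2 for replication-dependent probe sets, a fold of 1.47, and 0.26 log2 for variant ones, a fold of 1.19. Over all tested probe sets it was 0.48 log2. Where a gene group had several tested probe sets, they often differed in sign. Of 14 such groups all probe sets had the same sign in 8, 6 and 7 for the tRNA vector against empty, hairpin against empty and hairpin against tRNA. These are medians, and the standard errors of single histone probe sets ranged from 0.065 to 0.76.

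For many histone probe sets more of the spread lay between replicate numbers than between vectors. For replication-dependent probe sets a median of 15.9% of the spread lay between vectors and 35.7% between replicate numbers, and for variant ones 17.2% and 43.1%. Over all tested probe sets the shares were 12% and 40%, so the histone genes were close to the rest. The numbers had over 50% of the spread in 19 of 67 probe sets, the vectors in 1. This was not counted over all tested probe sets, so it is not read as particular to histones. The shares are also not on equal terms. There were 4 numbers and 3 vectors, and a split into more parts takes up more of the spread.

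Examples of a large share between numbers were picked after their values were seen. The brightest probe set of H2AC18 and H2AC19, a pair of H2A genes, was at 1524 to 1763 on the 6 arrays numbered 1 and 2 and at 2083 to 2804 on the 6 numbered 3 and 4, with 86.3% of its spread between numbers. A probe set shared by 14 H4 genes was at 365 to 824 on the arrays numbered 1 and at 1023 to 1621 on those numbered 4 (65.6%). H2BC12 (69.1%) and other probe sets of MACROH2A1 (84.6%), H2AJ (72%) and H2AX (69.3%) also had most of their spread between numbers. The control RNAs also differ by number, and the GAPDH 3' signal was 1.47 to 1.67 times the 5' signal on the arrays numbered 1 and 1.18 to 1.39 times on the others. The part of these in the differences was not tested.

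**Figure D3:**
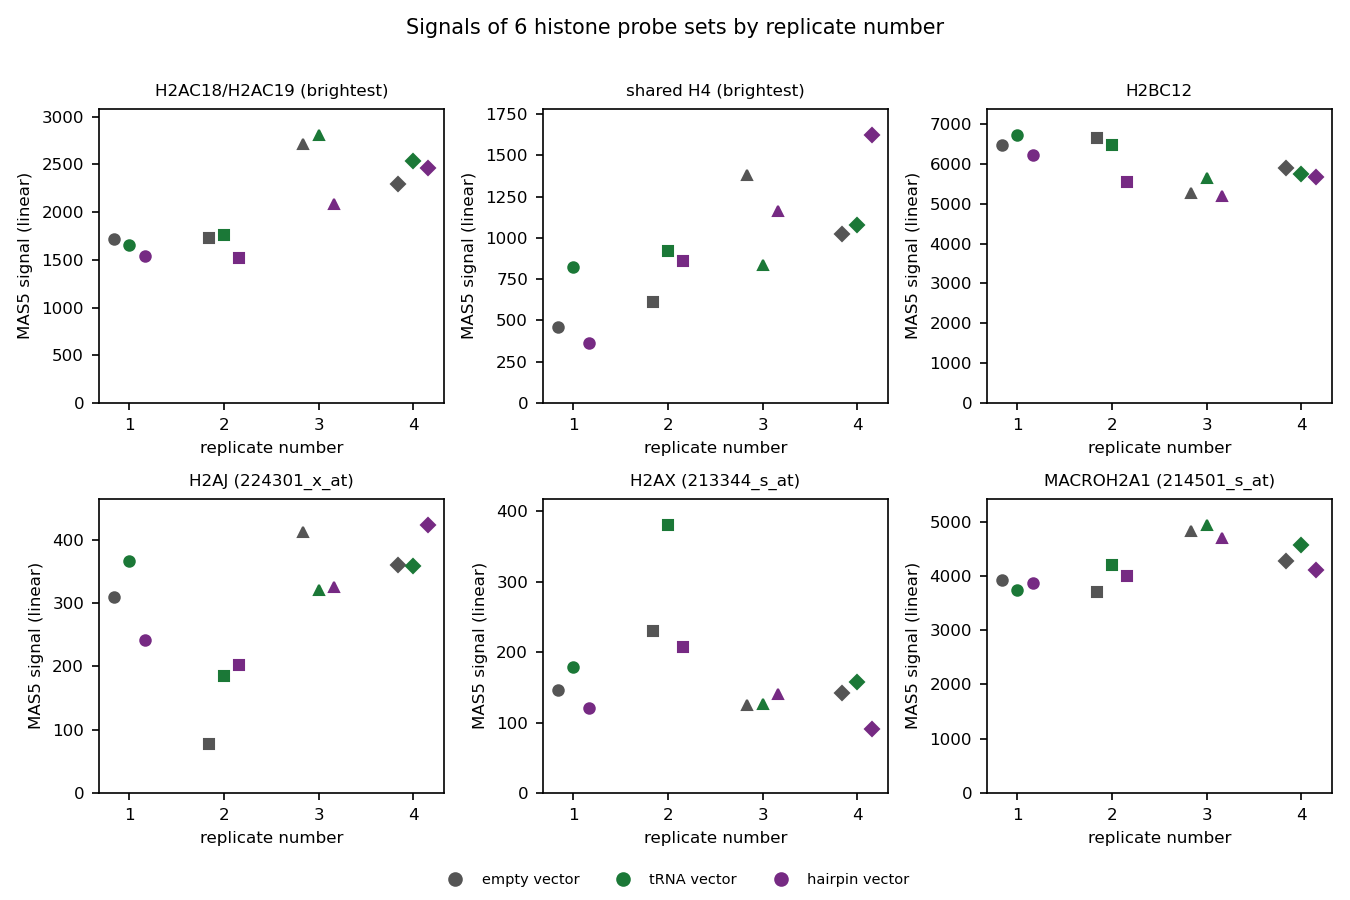
MAS5 signal (linear, y axis) of 6 histone probe sets by replicate number (x axis), 1 symbol per array coloured by vector. The probe set of H2AC18 and H2AC19 lies at 1524 to 1763 on the arrays numbered 1 and 2 and at 2083 to 2804 on those numbered 3 and 4, whichever the vector.

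Genes that make or handle histone mRNA were compared in the same fit, from a list of 29 symbols of which 27 were tested by their brightest probe set. In limma 0 passed after adjustment in each comparison. An unadjusted limma p under 0.05 was found for 2 genes with the tRNA vector against empty, both lower, for 0 with the hairpin vector against empty and for 3 between the vectors, all higher with the hairpin vector. Over all 61 tested probe sets of the list the counts were 3 (1 higher, 2 lower), 0 and 4 (3 higher, 1 lower), beside 3.78%, 2.65% and 3.88% of all tested probe sets. YY1, a transcription factor, gave 8430, 8688, 7354 and 7409 with the empty vector and 7151, 5889, 5890 and 6646 with the tRNA vector. The hairpin vector signals were 8500, 8599, 7167 and 7367. The 4 tRNA vector arrays were below all 8 others, a pattern not counted over all tested probe sets. Its log2 fold change was -0.32 ± 0.093 (limma adjusted p = 1) against empty and 0.31 ± 0.093 for hairpin over tRNA (limma adjusted p = 0.9997). Of the 61 probe sets, with the tRNA vector 2 lay below and 1 above all 4 empty vector arrays (backgrounds 1.43% and 1.17%). The 2 below were the brightest ones of YY1 and of ERI1, so no other tested probe set of these genes lay below. For hairpin over tRNA, 2 lay above and 1 below (backgrounds 1.46% and 1.17%).

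ERI1, the exonuclease that trims histone mRNA ends, gave 1120, 1043, 1084 and 1135 with the empty vector and 969.5, 872.6, 1012 and 1016 with the tRNA vector. The hairpin vector signals were 1202, 1040, 1159 and 1155. The tRNA vector arrays were the lowest 4 of the 12, again a pattern without a count over all tested probe sets. The log2 fold change of ERI1 was -0.18 ± 0.092 against empty and 0.24 ± 0.092 for hairpin over tRNA. SLBP, the stem-loop binding protein, gave 0.064 ± 0.086, 0.049 ± 0.086 and -0.015 ± 0.086 in the order tRNA over empty, hairpin over empty and hairpin over tRNA. In the same order NPAT, the coactivator of clustered histone genes, gave -0.035, -0.018 and 0.017 (SE 0.11). CASP8AP2, found with NPAT at histone locus bodies, gave 0.0015, 0.086 and 0.084 (SE 0.073). HINFP, a factor for H4 promoters, gave 0.075, 0.044 and -0.031 (SE 0.19). The U7 particle proteins LSM10 and LSM11 gave 0.086, -0.039 and -0.12 (SE 0.15) and -0.10, 0.087 and 0.19 (SE 0.11). The others with an unadjusted limma p under 0.05, named after their values were seen, were TUT7, a uridylyltransferase, with -0.28 ± 0.12 for tRNA over empty, and UPF1, a helicase in histone mRNA decay, with 0.23 ± 0.11 for hairpin over tRNA.

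Histone chaperones and exchange factors, 33 symbols of which 32 were tested, had 0, 0 and 1 genes with an unadjusted limma p under 0.05 in the order tRNA over empty, hairpin over empty and hairpin over tRNA. The 1 gene, picked out after its values were seen, was HJURP, the chaperone of the centromeric H3, with -0.32 ± 0.12 for hairpin over tRNA. S phase genes, 28 of 30 tested and a few of them also in the other lists, had 0 in each, and 0 genes of both lists passed in limma after adjustment. Over all probe sets, 1 of 74 for chaperones and 1 of 52 for S phase genes had such a p in each comparison, beside the same 3.78%, 2.65% and 3.88%. Of the 74, with the tRNA vector 3 lay above and 1 below all 4 empty vector arrays (backgrounds 1.17% and 1.43%). NASP, a chaperone that stores H3 and H4, gave 6840, 7283, 6642 and 7163 with the empty vector and 7451, 7644, 7534 and 7582 with the tRNA vector, all above. The log2 fold change of NASP was 0.11 ± 0.060 (95% interval -0.015 to 0.24), and hairpin over tRNA gave -0.090 ± 0.060. In the same order ASF1B, which passes H3 and H4 to other chaperones, gave 0.094, 0.088 and -0.0054 (SE 0.084). CHAF1A, of the factor that loads histones behind forks, gave 0.097, 0.071 and -0.027 (SE 0.11). HIRA gave -0.21, -0.12 and 0.091 (SE 0.19), DAXX -0.080, -0.010 and 0.070 (SE 0.11) and ATRX -0.15, -0.057 and 0.093 (SE 0.11). All 4 ATRX signals with the tRNA vector were below those with the empty vector.

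As lists, the medians of these genes stayed near 0. S phase genes had medians of 0.046, 0.0068 and -0.034 in the order tRNA over empty, hairpin over empty and hairpin over tRNA. Those of histone transcription and 3' processing were -0.0095, 0.0050 and 0.011, and those of chaperones 0.051, -0.012 and -0.038. Of 11 further histone genes outside the rule above, 1 was tested, CENPA, the centromeric H3, with log2 fold changes of -0.13, -0.033 and 0.10 (SE 0.16). Per array, the median deviation of replication-dependent gene groups from their mean over the 12 arrays was 0.016 ± 0.10 (SD, n = 4) on the empty vector arrays. It was -0.026 ± 0.056 on the tRNA vector arrays and 0.050 ± 0.048 on the hairpin vector arrays. The variant values, in that order, were -0.036 ± 0.094, 0.031 ± 0.083 and 0.030 ± 0.076, and in both classes the vectors overlapped.

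**Figure D4:**
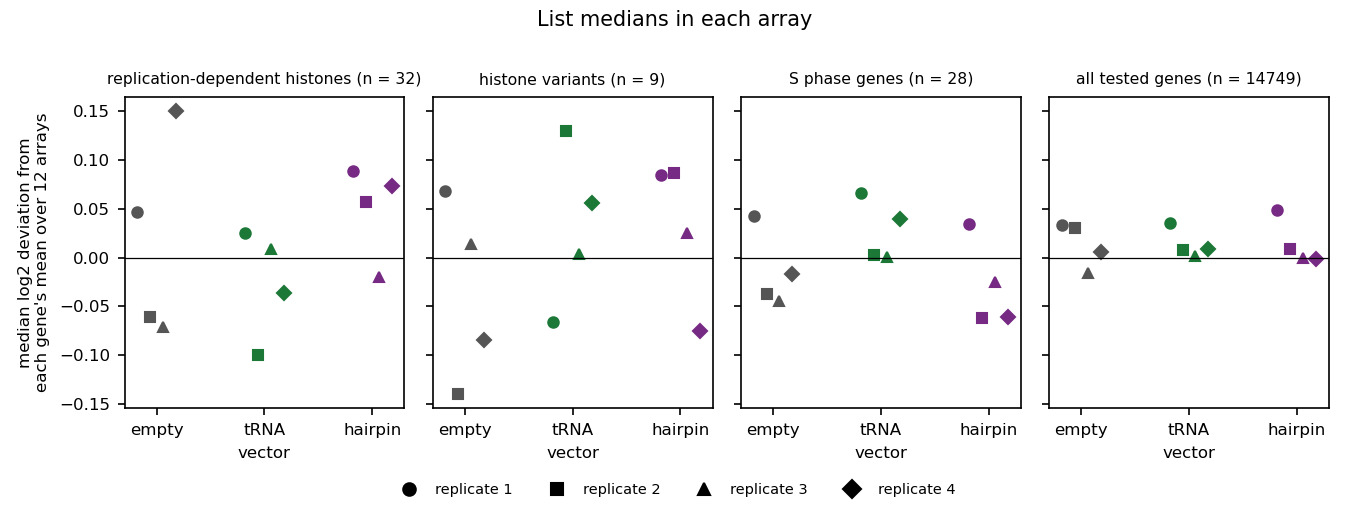
Median log2 deviation (y axis) from each gene's mean over the 12 arrays, by vector (x axis), for replication-dependent histones, histone variants, S phase genes and all tested genes, with 1 point per array and its shape giving the replicate number. Replication-dependent histone genes lie at -0.071 to 0.15 with the empty vector, -0.10 to 0.025 on the tRNA vector arrays and -0.020 to 0.089 on the hairpin vector arrays.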

How the data were processed

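RNA of 12 samples of 293T cells was hybridised to 12 arrays, 1 per sample. The authors deposited MAS5 signal intensities, not on a log scale. The submitters' processing notes name MAS5 and no version, and the 2% trimmed mean of 500.1 per deposited column shows scaling to a common intensity. Symbols came from the array's annotation, with current names. No genome build is given in the sources used here. Coordinates and promoters are from the RefSeq table. Histone members and gene lists, and the rule for named genes, were chosen with earlier results of these data known.

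The log2 of each signal was used, 62 controls and 21845 dim probe sets were left out, and limma 3.58.1 (R 4.3.3) fitted 3 group means over the 12 arrays, with lmFit and then eBayes with a trend on intensity. P values are two-sided and adjusted by Benjamini-Hochberg over 32768 probe sets, with a threshold of 0.05, and ± after a log2 fold change is the limma standard error. The fit was also run on simulated data with independent noise and no differences between replicate numbers. These arrays do differ by number, so that run does not bear on such spread. P values measure the spread between these samples, and in the main fit that includes the spread between replicate numbers. The number of arrays limits the precision.

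Named in each comparison were the 4 replication-dependent and 4 variant genes with the smallest unadjusted limma p, a set of variants, and genes that act on histones, with any other such gene with a limma p under 0.01. A gene named in 1 comparison is also given in others, and names outside the rule are marked in the text. Alternatives were quantile normalisation, no or a stricter filter (60th percentile), an offset of 16, no intensity trend, blocks for the replicate number and for the control RNA level, other choices of probe set, and leaving out each array.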

Additional observations from a re-analysis of the deposited data

Results flagged for a closer look

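Among 60 groups of 4 arrays checked, 1 held an array far from the other 3, and chance gives about 1 in 20 groups. In the probe set shared by H2AC7 and H3C4, the first tRNA vector array was at 9.849, and the other 3 were at 58.93, 57.43 and 73.16.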

How the results depend on the processing

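The count of histone probe sets with a limma adjusted p under 0.05 was 0 in each comparison in all alternatives run, those that left out 1 array included. With 1 array left out, the histone counts at an unadjusted limma p under 0.05 moved more. Counts over all tested probe sets were not taken in these fits, so no background stands beside the histone ones. The histone counts were 1 to 7 for the tRNA vector against empty. The 7 was without the third empty vector array, and 6 was without the fourth tRNA vector array. For hairpin against empty they were 0 to 3, and between the vectors 2 to 5. Leaving out 1 array gave replication-dependent medians of -0.057 to 0.072, 0.0053 to 0.085 and 0.049 to 0.15 in that order, and variant medians of 0.092 to 0.17, 0.046 to 0.15 and -0.062 to 0.041. Without _x_at and _s_at probe sets the variant median for tRNA over empty was 0.055 and the replication-dependent one for hairpin over tRNA 0.19; with the stricter filter the latter was 0.029. The cause was not tested.

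The replicate numbers were checked as pairs. Across probe sets (no independent replicates), deviations from the group means had r of 0.0987 to 0.356 in the 12 same-number pairs and of -0.231 to 0.148 in the 36 others, and 8 of 12 arrays correlated best with their own number in both other groups. Of the 12, 11 were over 0.1. The rule for pairs asks this of every pair, so the main fit did not treat the numbers as pairs. Arrays of the same number were nonetheless alike in control RNA level. The main fit has no term for the number, so the spread between numbers stays in its error. With the replicate number as a block, limma called 0 histone probe sets in each comparison (smallest adjusted p = 0.224, 0.899 and 0.152), with 10, 2 and 10 of 67 (14.9%, 2.99% and 14.9%) at an unadjusted p under 0.05, against 7.77%, 5.4% and 7.92% of all tested, of which 0, 0 and 6 were called. With the control RNA level as a block, the histone counts were 0, with smallest adjusted p of 0.175, 0.883 and 0.102, with 9, 3 and 10 at an unadjusted p under 0.05 against 7.7%, 5.5% and 7.94% of all tested, of which 4, 3 and 8 were called. Signal over background limits the 39 dim histone probe sets, for which no comparison is given.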
